A study of Sargassum vulgare with 6 samples.

Results

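Assembled components with 3 or more expressed forms were examined in Sargassum vulgare, a canopy-forming brown macroalga. A component is a group of assembled sequences whose names differ only in the final sequence number, and each such sequence is called a form here. The components were selected on their measured abundance. A form counted as detected if its FPKM (fragments per kilobase of sequence, scaled to library size) was 1 or more in 3 or more of the 6 libraries, and a component was kept if it had at least 3 detected forms. This gave 121 of 33911 components, with 425 of the 5399 detected transcripts. These components listed 1184 transcripts in all, of 67131 in the tables. They are compared in places with 321 components that had 2 detected forms and 4332 that had 1.

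RNA was sequenced from apical tissue of wild thalli at 2 places off Ischia Island. The acidified site, with natural carbon dioxide vents, lay at Castello Aragonese and the control site at Lacco Ameno. Each of the 3 libraries per site was made from a pool of 3 thalli, so variation between single thalli is averaged within a library. Only 1 place was sampled per condition, and acidification and other differences between the places cannot be told apart. The question asked of each component was whether its total, and the division of that total among its forms, differed between the sites.

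Forms that an assembler groups into 1 component can be splice variants, alleles, close gene copies or partial sequences of a gene. Alternative splicing lets a gene yield several transcripts, and a pool of wild individuals also carries several alleles. Fragments that match more than 1 form have to be divided between the forms by an estimate, so the total of a component is set by more fragments than the division within it. The tables do not pair components with gene names, functions or sequences, so components are given by their identifiers. The identifiers carry the library name of the acidified site (MAC) or of the control site (MLA), and this name is taken here as the origin of the assembled sequence.

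The selection contained 78 components with 3 detected forms, 31 with 4, 9 with 5, 2 with 7 and 1 with 8. Of the 121, 57 had identifiers with MAC and 64 with MLA. The number of listed forms per component ran from 3 to 46 with a median of 7, and in 19 components every listed form was detected. Summed over all 121 components, listed forms below the detection limit held between 0.236% and 0.278% of the FPKM in a library. This sum is weighted to the 12 components at 1000 FPKM or more, which held 86.2% of the FPKM. In some components of low total such forms held a far larger part, which was not summarised per component. In 5 components such a form was the highest in at least 1 library.

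The selection depended on the detection limit. Membership turned on the value that the third of the ranked forms reached in at least 3 libraries. This was 1.006, 1.025 and 1.041 FPKM in the 3 components just inside and 0.973, 0.951 and 0.946 FPKM in the 3 just outside. In 10 components it lay between 0.9 and 1 FPKM.

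Some forms reached 1 FPKM at one site only. Of the 425 forms, 238 were at 1 FPKM or more in all 6 libraries, 51 in 5, 55 in 4 and 81 in 3. Among the 81, 17 reached 1 FPKM in the 3 acidified libraries and in no control library, and 10 in the 3 control libraries and in no acidified library. Such a form had to differ between the sites to be selected. These 27 forms lay in 25 components, of which 19 would not have reached 3 detected forms without them, so counts of calls are given below with and without them. Their own site differences are described with no p-value, because the selection required them. Forms at 1 FPKM in all libraries of one site and in only some of the other stay in the counts without the 27. The selection of such forms also leaned on the site where they were higher. Percentages over all tested rows include forms of both kinds.

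The 121 components spanned a wide range of abundance. The mean component total over the 6 libraries had a median of 20.1 FPKM and quartiles of 11.0 and 47.2 FPKM, with a lowest value of 3.85 and a highest of 7856 FPKM. The 12 components at 1000 FPKM or more held 86.2% of the FPKM of the whole selection. Another 9 lay between 100 and 1000 FPKM, 75 between 10 and 100, and 25 below 10. By comparison, the median was 7.54 FPKM for components with 2 detected forms and 3.01 FPKM for all 5176 tested components.

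The selection held a like part of each library. It took 5.34%, 5.78% and 4.72% of the summed FPKM in control libraries 1, 2 and 3 and 4.53%, 4.60% and 5.54% in acidified libraries 1, 2 and 3. The site means of 5.28% ± 0.53 and 4.89% ± 0.56 (n = 3 each, ± SD) overlapped and did not differ beyond the spread between libraries (exact two-sided permutation test, p = 0.50, where 3 against 3 cannot go below 0.10). The number of the 425 forms at 1 FPKM or more was also close between libraries, from 345 to 362 in the control and from 357 to 363 in the acidified libraries. The summed FPKM of a library lay between 750020 and 1048696, and the number of reads behind it is not known.

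The leading form of a component, the one with the highest mean share of its FPKM, held a median of 51.5% of the total. Its share ran from 18.8% to 99.4%, with quartiles of 39.5% and 71.8%. In 66 components it held more than 50%, in 10 it held at least 90%, and in 13 it held less than 1 part in 3. The second form held a median of 24.4%, and both together held 81.6%. The division was summarised as the effective number of forms, the inverse Simpson index of the shares among the detected forms only. It equals the number of detected forms if all are equally abundant. The components had a median of 2.16, with quartiles of 1.66 and 2.53.

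Dominance by 1 form went with abundance. The median share of the leading form was 37.3% in the 25 components below 10 FPKM, 54.4% in the 75 between 10 and 100, 71.9% in the 9 between 100 and 1000 and 67.8% in the 12 at 1000 FPKM or more. The effective number of forms had medians of 2.29, 2.17, 1.68 and 1.79 in these classes. A form needs 1 FPKM to be detected, so a component of low total enters only if its minor forms hold a sizeable share, and the selection itself shapes this relation at the low end.

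**Figure D1:**
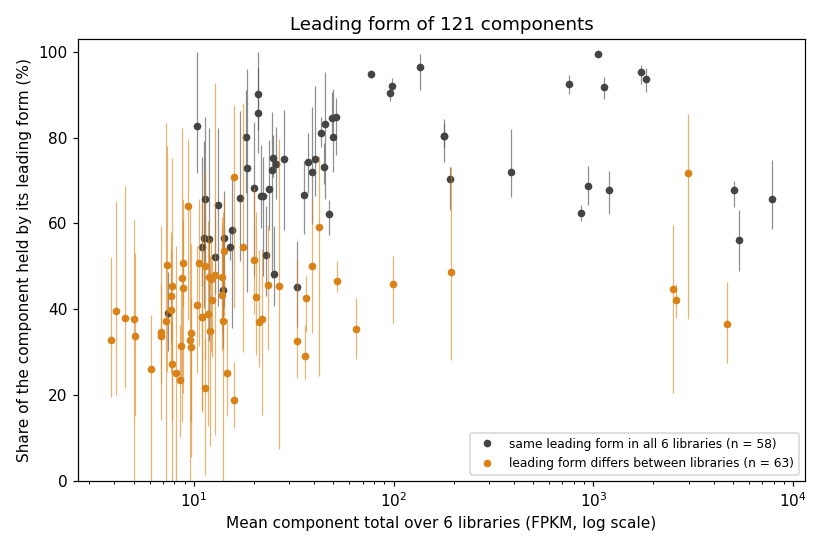
Share of the component FPKM held by the leading form (y axis, percent) against the mean component total (x axis, FPKM, log scale) for 121 components; points are means over 6 libraries and vertical lines run from the lowest to the highest library. Components with the same leading form in all 6 libraries (58, dark) had higher shares and totals than those whose leading form differed (63, orange), and the lines are shortest above 100 FPKM.

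The identity of the leading form was often not the same in all libraries. In 58 components 1 form led in all 6 libraries. In 44 components 2 different forms led, in 18 components 3 forms and in 1 component 4 forms, so that the leader differed between libraries in 63 components (52.1%). Among components with 2 detected forms this was so in 164 of 321 (51.1%). The 63 had a median total of 11.9 FPKM and a median leading share of 41.0%, against 36.3 FPKM and 71.9% in the 58. By abundance, the leader differed in 24 of 25 components below 10 FPKM, 34 of 75 between 10 and 100, 1 of 9 between 100 and 1000 and 4 of 12 at 1000 FPKM or more.

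Most of these differences did not separate the sites. The leader differed among the 3 control libraries in 42 components and among the 3 acidified libraries in 44, and within at least 1 of the sites in 58. Only 5 components had 1 leader in all control libraries and another in all acidified libraries. In 3 of these 5 the leader was ahead by at least 10 percentage points in every library. Components with a leader for each site were not counted outside the selection, so the 5 are not read as a trait of it.

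The share of the leading form moved by a median of 26.7 percentage points between its lowest and its highest library. Within the control site the range had a median of 14.2 points and within the acidified site 12.3 points, while the site means differed by a median of 7.84 points. In 18 components the site means differed by more than the range within either site. This was not counted over all tested components, so it is not read as a trait of the selection. The range over libraries fell with abundance, from a median of 42.1 points below 10 FPKM to 8.89 points at 1000 FPKM or more.

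Component totals varied less among libraries of one site than the forms that make them up. On the log2(FPKM + 1) scale, the median SD within a site was 0.29 for the totals, 0.38 for the leading forms and 0.47 for the other forms. The leading form varied more than its own total in 94 of 121 components. All tested components had a median SD of 0.34 on this scale, and all tested transcripts 0.37. Deviations of the leading and the second form from their site means were correlated negatively in 57 components and positively in the rest, with a median Pearson's r of 0.04. In 26 components r was below -0.5 and in 32 it was above 0.5. Each r rests on 6 libraries, and both forms share the library and the fragments divided between them.

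**Figure D2:**
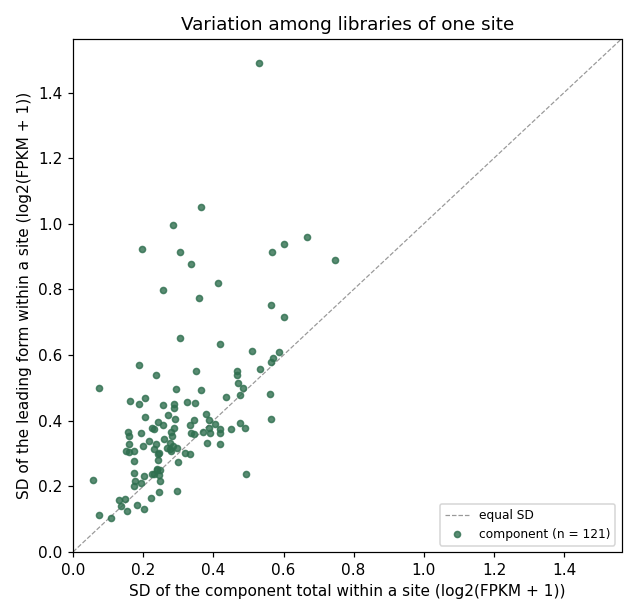
SD among libraries of one site for the leading form (y axis) against that of the component total (x axis), both on the log2(FPKM + 1) scale and pooled over the 2 sites, with 1 point per component (n = 121). In 94 components the point lies above the dashed line of equal SD, that is, the leading form varied more than the total.

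The component with the most detected forms, Sample_MAC_c92784.graph_c0, was also the most abundant, and its 3 main forms kept their order. It had 8 detected of 24 listed forms. Its total was 6021, 5558 and 7478 FPKM in control libraries 1, 2 and 3 and 11916, 7876 and 8286 FPKM in acidified libraries 1, 2 and 3. All acidified values were higher than all control values, but the log2 difference of 0.55 ± 0.25 (SE) did not pass limma's test (adjusted p = 0.22). The form seq41 led in every library with 61.7%, 74.7% and 69.0% of the total at the control site and 63.5%, 58.6% and 67.2% at the acidified site. The form seq33 came second with 17.9% to 33.7%, and seq62 next with 4.35% to 7.07%. The other 5 forms held at most 2.25% each in any library. Among them, seq37 was at 1.096, 0 and 0 FPKM in the control and 2.31, 5.96 and 3.42 FPKM in the acidified libraries (log2 difference 1.87), a change in a form that held at most 0.0757% of the component. The form seq37 met the detection limit through the acidified libraries, so its selection leaned on the site where it was higher, and no p-value is given.

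The next components in abundance also kept 1 leader. Sample_MLA_c38386.graph_c0, with 4 forms, had totals of 7723, 6885 and 4920 FPKM in the control and 5119, 3877 and 3734 FPKM in the acidified libraries. The sites overlapped, and its log2 difference of -0.61 ± 0.26 (SE) did not pass the test (limma adjusted p = 0.18). Its leading form seq3 held 58.0% ± 4.40 at the control site, and 54.2% ± 5.17 in the acidified libraries (n = 3 each, ± SD). Its form seq2 held 1.54%, 1.35% and 0.53% of it in control libraries, then 20.4%, 8.99% and 3.96% in acidified libraries. These shares did not overlap, but the change of seq2 relative to its component, 3.10 ± 0.70 (SE) on the log2 scale, did not pass the test (limma adjusted p = 0.10).

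Sample_MAC_c87792.graph_c0, with 3 forms, had totals of 4829, 4109 and 4419 FPKM in the control and 6970, 5349 and 4641 FPKM in the acidified libraries, which overlapped (log2 difference 0.33 ± 0.24 SE, limma adjusted p = 0.45). Its 2 main forms held 63.9% to 70.0% and 29.8% to 34.0% in the 6 libraries. Its remaining form, seq6, was listed at 292 FPKM in control library 1, at 19.4 FPKM in acidified library 1, at 20.0 FPKM in acidified library 3 and at 0 in the other 3 libraries.

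Among the 2 components with 7 detected forms, 1 had a leader that differed between the sites. In Sample_MAC_c95830.graph_c0 the forms seq4 and seq5 together held most of the total. The form seq4 held 37.5%, 39.7% and 39.7% of it in control libraries, then 30.8%, 33.5% and 33.5% in acidified libraries. The form seq5 held 35.2%, 27.5% and 29.1% of it in control libraries, then 46.2%, 40.4% and 40.8% in acidified libraries. The leader thus passed from seq4 to seq5 with no overlap in either share, although in control library 1 the forms were only a few points apart. The difference of 11.9 ± 6.0 percentage points (SE) in the share of seq5 did not pass limma's test (adjusted p = 0.43), nor did that of the component total (log2 difference -0.87 ± 0.31 SE, adjusted p = 0.11). Without acidified library 3 the total passed, at -1.18 (limma adjusted p = 0.031). One minor form, seq3, fell in absolute level, from 662, 116 and 510 FPKM in the control libraries to 38.1, 20.0 and 46.4 FPKM in the acidified libraries (log2 difference -3.33, limma adjusted p = 0.022).

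The other component with 7 detected forms, Sample_MLA_c37894.graph_c1, was the most even of those at 10 FPKM or more, with an effective number of 4.70 ± 0.45 forms at the control site, and 4.65 ± 0.27 in the acidified libraries (n = 3 each, ± SD). Its leading form seq5 held between 23.7% and 36.4%, and seq13, next in mean share, between 20.8% and 32.2%, ahead of seq5 in some libraries. The total was 22.9, 19.7 and 33.26 FPKM in the control and 49.1, 42.0 and 48.05 FPKM in the acidified libraries, with no overlap (log2 difference 0.88 ± 0.26 SE, limma adjusted p = 0.056). The next most even was Sample_MAC_c94783.graph_c7, whose 5 forms gave an effective number of 4.24 on average and took turns as leader, 3 different forms leading over the 6 libraries.

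The 2 steadiest divisions among components at 10 FPKM or more were of almost a single form. In Sample_MLA_c37897.graph_c1 the form seq12 held between 99.25% and 99.64% of a total that ran from 834 to 1316 FPKM. In Sample_MLA_c38031.graph_c4 the form seq9 held between 93.9% and 95.8% of a total that ran from 67.7 to 83.1 FPKM. In neither component did the total differ between the sites beyond the spread of the libraries (limma adjusted p = 0.64 and 0.92).

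Among components at 10 FPKM or more, 2 had the widest range of the leading share within a site. In Sample_MAC_c95733.graph_c0 the leading form seq57 held 58.4%, 3.83% and 0% of it in control libraries, then 53.1%, 62.6% and 45.4% in acidified libraries. The form seq56 of that component was at 6.17, 16.6 and 9.65 FPKM for the control and at 0, 0.455 and 0 FPKM in the acidified libraries, and it is one of the forms that reached 1 FPKM at one site only and without which the component would not have been selected. Control library 1 stood apart from the other control libraries in seq57. Without that library the leading share differed by 51.8 points between the sites in place of 32.9 ± 16.9 points (SE, limma adjusted p = 0.44). The selection required seq56 to differ, and the shares of a component sum to the whole, so the difference in seq57 is not free of the selection. In Sample_MLA_c36876.graph_c1 the form seq1 held 62.8%, 54.6% and 30.1% of it in control libraries, then 58.2%, 88.1% and 32.6% in acidified libraries, so the spread within each site exceeded the difference between them (10.5 ± 16.6 percentage points, SE; limma adjusted p = 0.79).

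Between the sites, the totals of 9 components were higher and those of 7 lower in acidified than in control libraries by limma's test (adjusted p under 0.05). These are 7.44% and 5.79% of the 121, where 4.33% and 4.25% of all 5176 tested components were called. Among the 2235 tested components within the same range of mean totals, the percentages were 6.04% higher and 6.26% lower. Among the 102 components that did not depend on a form detected at one site only, 7 were higher and 6 lower. No matching share over all tested components was taken for these 102. The sites did not overlap in 57 of the 121 (47.1%), against 29.1% of all tested components and 36.2% of those in the same range of totals. The median log2 difference was -0.04 in the 121 and 0.01 over all, and the median absolute difference 0.45 and 0.36. With quantile normalization the calls were 6 higher and 8 lower, and with each library scaled to the same sum they were 5 and 4. With no filter on low values, 0 totals of the 121 passed limma's test, and the 4 named below had adjusted p between 0.053 and 0.098. With the filter, 46 of the 121 had an unadjusted p under 0.05. This was not counted over all 5176 tested components, so it is not read as a trait of the selection. Leaving out a library gave 2 to 6 higher and 2 to 8 lower totals, the fewest in all, 2 and 3, without control library 3. Leaving out any library except acidified library 3 moved at least 1 of these counts by over 1.5 times.

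The called totals were split unevenly by identifier. All 5 called components named MAC were higher at the acidified site, while those named MLA were 4 higher and 7 lower. Calls by identifier were not counted over all tested components, so this split cannot be called particular to the selection. The median log2 difference was 0.05 in the 57 MAC components and -0.16 in the 64 MLA components. Over all tested components with these names it was 0.15 and -0.10. The part of this origin in the called differences was not tested.

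**Figure D3:**
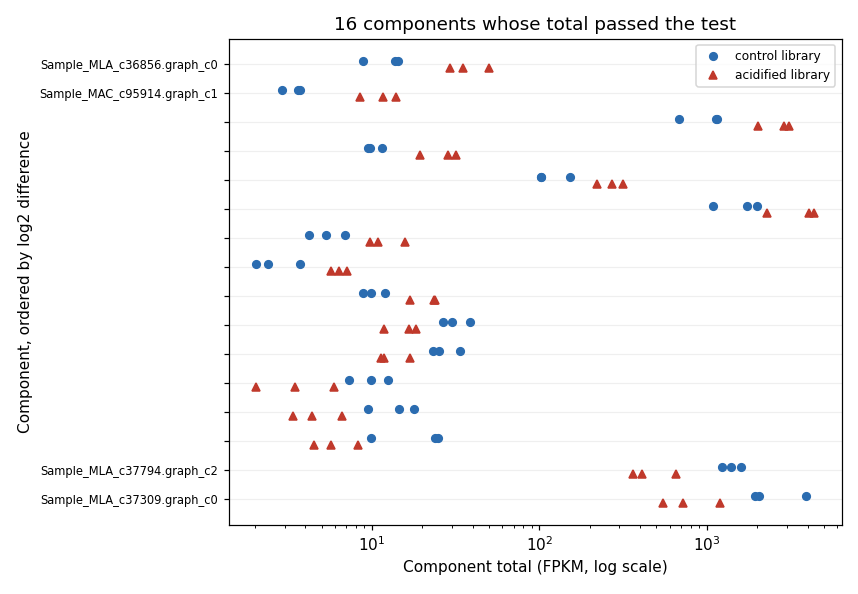
Component totals (x axis, FPKM, log scale) of the 16 components that passed limma's test, 1 row each, ordered by log2 difference, with control libraries as circles and acidified libraries as triangles (n = 3 each). The sites do not overlap in any row, and the 9 upper rows are higher and the 7 lower rows lower at the acidified site; the 2 largest rises and falls are named.

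On the log2(FPKM + 1) scale the largest called rise of a total was that of Sample_MLA_c36856.graph_c0, with 4 detected forms. It stood at 14.2, 8.82 and 13.7 FPKM for the control and at 34.9, 49.99 and 29.05 FPKM in the acidified libraries, a 3.10-fold higher mean (log2 difference 1.55 ± 0.29 SE, limma adjusted p = 0.0075). The leading form seq7 rose with it (log2 difference 1.57, limma adjusted p = 0.017), and so did seq9, from 0.778, 0 and 1.22 FPKM to 14.1, 12.1 and 6.76 FPKM (log2 difference 2.87). The form seq9 met the detection limit through the acidified libraries, so its selection leaned on the site where it was higher, and no p-value is given. The form seq2 was at 2.99, 3.20 and 3.53 FPKM in the control and at 1.57, 4.54 and 0.797 FPKM in the acidified libraries, which overlapped (log2 difference -0.52, adjusted p = 0.47). Relative to its component seq2 fell by 2.07 ± 0.34 (SE) on the log2 scale (limma adjusted p = 0.042), from a share of 27.7% ± 7.78 to 5.44% ± 3.27 (n = 3 each, ± SD). That usage call was lost without any 1 of the 6 libraries, with adjusted p between 0.068 and 0.15.

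Next on this scale, which shrinks changes of low totals, Sample_MAC_c95914.graph_c1 rose from 2.89, 3.71 and 3.61 FPKM to 11.6, 8.49 and 13.9 FPKM, a 3.33-fold higher mean (log2 difference 1.47 ± 0.26 SE). It is one of the components that depended on a form seen at one site: seq58 had a value of 0 throughout the control libraries, against 1.98, 1.27 and 2.66 FPKM in the acidified libraries. The total includes seq58, so the selection favoured a rise of this total, which is given without a p-value. Its leading form seq49 was at 1.79, 1.49 and 1.85 FPKM in the control and 2.93, 6.62 and 6.33 FPKM in the acidified libraries (log2 difference 1.16, adjusted p = 0.057), and seq31 was listed at 0 in acidified library 2 but at 6.36 FPKM in acidified library 1.

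The largest fall was that of Sample_MLA_c37309.graph_c0, an abundant component in which 3 of 44 listed forms were detected. Its total was 3908, 1935 and 2039 FPKM in the control and 546, 715 and 1194 FPKM in the acidified libraries, a 3.21-fold lower mean (log2 difference -1.68 ± 0.35 SE, limma adjusted p = 0.014). The division moved little, and the leading form seq2 held 95.9% ± 0.94 at the control site, and 94.6% ± 2.04 in the acidified libraries (n = 3 each, ± SD; difference -1.30 ± 1.22 points SE, adjusted p = 0.66). The call was lost without acidified library 1 (log2 difference -1.43, adjusted p = 0.055).

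Sample_MLA_c37794.graph_c2 fell from 1393, 1596 and 1226 FPKM to 412, 362 and 655 FPKM, a 2.95-fold lower mean (log2 difference -1.60 ± 0.27 SE, limma adjusted p = 0.0051). Its leading form seq12 held 68.7% ± 1.07 and 68.8% ± 4.48 (n = 3 each, ± SD), a difference of 0.06 ± 5.16 points (SE, adjusted p = 0.996). The second form, seq6, fell as well, from 338, 445 and 314 FPKM to 62.3, 68.2 and 128 FPKM (log2 difference -2.13, adjusted p = 0.0068), and its change relative to the component, -0.53 ± 0.23 (SE), did not pass the test (adjusted p = 0.33). In contrast seq3 was at 70.2, 54.3 and 49.8 FPKM in the control and 41.7, 56.2 and 64.5 FPKM in the acidified libraries, which overlapped (log2 difference -0.11, adjusted p = 0.85). Its share went from 5.04%, 3.40% and 4.06% to 10.1%, 15.5% and 9.85%, but its change relative to the component did not pass the test (1.49 ± 0.31 SE, limma adjusted p = 0.076).

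Of the single forms, 25 were higher and 22 lower in acidified than in control libraries by limma's test (adjusted p under 0.05), which is 5.88% and 5.18% of the 425. Over all 5399 tested transcripts 4.11% were higher and 3.56% lower. Without the 27 forms detected at one site only, 17 of the 398 others were higher and 19 lower. The percentages over all 5399 transcripts still include such forms, so they are no matching background for the 398. The sites did not overlap for 145 forms (34.1%, against 29.1% of all tested transcripts). Called rises ran from 0.92 to 9.09 on the log2 scale with a median of 1.54, and called falls from -1.05 to -3.33 with a median of -1.53, the forms at one site only included. Leaving out a library gave 5 to 19 higher and 7 to 21 lower forms, the fewest without control library 3, and counts outside 1.5 times also came without control library 1 or 2 and acidified library 1 or 2.

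Most components with a called form had only 1. The counts that follow were not made for components with 2 detected forms or for all tested components, so they are not read as a trait of this selection. The 47 called forms lay in 40 components, 7 of which had 2 or more called forms, and in none were all detected forms called (limma; the alternatives were not counted for this). In 38 of the 121 components all detected forms differed between the sites in 1 direction, whether called or not, and this was so in 10 of the 16 components with a called total. A total is the sum of its forms, so a called total already favours forms that differ in 1 direction. Of these 16, 10 had a called leading form and 13 at least 1 called form. In 27 components a form was called but the total was not.

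In 3 components forms were called in opposite directions, but in 2 of them, Sample_MLA_c38323.graph_c3 and Sample_MAC_c94718.graph_c0, the higher form was one that the selection required to differ. In Sample_MLA_c38323.graph_c3, described below, these were seq76, higher, and seq38, lower. The other 2 were named after their values were seen. In Sample_MLA_c38174.graph_c0 the form seq18 rose from 35.6, 33.4 and 38.6 FPKM to 92.8, 74.5 and 68.4 FPKM (limma adjusted p = 0.023). The form seq20 fell from 2.46, 2.86 and 3.05 FPKM to 0.652, 1.09 and 0.700 FPKM, beside a leading form seq22 at 585 to 850 FPKM that was not called. The form seq20 reached 1 FPKM in only 1 acidified library, so it met the detection limit through the control libraries, and its fall is given without a p-value. Without seq20 the component would have had under 3 detected forms. In Sample_MAC_c94718.graph_c0 the form seq1 fell from 7.27, 7.45 and 6.99 FPKM to 2.88, 2.42 and 3.002 FPKM, while seq2 was listed at 0 for the control and at 3.98, 1.88 and 1.20 FPKM in the acidified libraries (adjusted p = 0.023 for seq1).

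**Figure D4:**
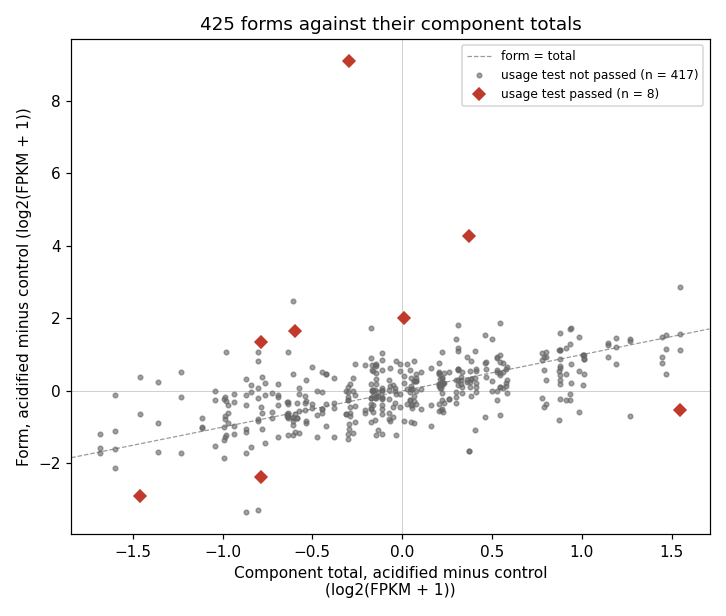
Difference between the sites of each form (y axis) against that of its component total (x axis), both as acidified minus control on the log2(FPKM + 1) scale, for 425 forms. The 8 forms called relative to their component are red diamonds, 5 of them above and 3 below the dashed line on which a form changes as much as its total; 4 of the 5 and 1 of the 3 are forms that reached 1 FPKM at one site only.

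The use of forms, tested as the log2 value of a form minus that of its component, differed for few forms. At the acidified site 5 forms were higher and 3 lower relative to their component (limma, adjusted p under 0.05), in 7 components, of which 2 calls lay in components whose total was called. Without the forms that reached 1 FPKM at one site only, 1 of 398 was higher and 2 were lower. The higher one, seq3 of Sample_MLA_c38260.graph_c1, lay in a component that was selected only through such a form. Of the 2 lower forms, seq3 of Sample_MLA_c37225.graph_c1 met the detection limit through the control libraries. The full counts of 5 and 3 are 1.18% and 0.706% of the 425 forms, where the percentages among all 1067 forms tested in this way were 1.12% and 0.937%. The sites did not overlap for 116 forms (27.3%, against 23.4%). At an unadjusted p under 0.05 there were 70 of the 425, a count that was not made over all 1067 forms and is not read as a trait of the selection. Shares within a component sum to the whole, so calls in the same component are not independent of each other. Leaving out a library gave 2 to 6 higher and 0 to 3 lower forms, and no lower form was left without control library 2 or 3 or without acidified library 2 or 3.

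The largest difference in use was that of seq1 in Sample_MAC_c87845.graph_c0, which held 0.028%, 0.0214% and 0% of the component in control libraries, then 39.3%, 48.6% and 22.3% in the acidified libraries (a difference of 9.39 on the log2 scale). The selection required this form to differ, and the component entered only through it. In FPKM it stood at 0.614, 0.694 and 0 and then at 1337, 998 and 333. The total was 2194, 3240 and 2716 FPKM in the control and 3406, 2053 and 1492 FPKM in the acidified libraries and overlapped (limma adjusted p = 0.61). The form seq2 held 59.6%, 48.1% and 58.1% in the control and 35.6%, 20.5% and 46.8% in the acidified libraries, and seq3 held 40.3%, 51.8% and 41.9% and then 25.2%, 30.9% and 30.9%. As a result, 3 different forms led in the 6 libraries: seq2 in control libraries 1 and 3 and acidified library 3, seq3 in control library 2, and seq1 in acidified libraries 1 and 2. The effective number of forms was 1.96 ± 0.036 in the control and 2.78 ± 0.12 in the acidified libraries (n = 3 each, ± SD).

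Next was seq76 in Sample_MLA_c38323.graph_c3. It had a value of 0 throughout the 3 control libraries, against 18.57, 14.345 and 22.59 FPKM in the acidified libraries, where it led with 57.25%, 51.23% and 73.75% of the component. This component, too, was selected only through a form that had to differ, seq76. The form seq38, leader at the control site with 79.8%, 74.0% and 67.9%, held 19.0%, 24.7% and 7.43% at the acidified site. Its share differed by -56.8 ± 7.83 percentage points (SE). Shares sum to the whole and the selection kept this component for seq76, so no p-value is given for this difference. It was among the leading shares called by limma, and that call was lost without control library 2 or 3 or any 1 acidified library. Meanwhile the total was 23.6, 22.8 and 23.1 FPKM in the control and 32.4, 28.0 and 30.6 FPKM in the acidified libraries, without overlap but short of the threshold (log2 difference 0.37 ± 0.23 SE, limma adjusted p = 0.35).

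The other named form with lower use was seq7 in Sample_MLA_c38260.graph_c1, a component of low abundance with totals of 16.4, 5.70 and 7.03 FPKM in the control and 3.48, 4.71 and 6.08 FPKM in the acidified libraries. The form seq7 held 55.8%, 63.3% and 57.2% of it in control libraries, then 1.01%, 2.46% and 7.43% in acidified libraries, or 9.14, 3.60 and 4.02 FPKM and then 0.035, 0.116 and 0.452 FPKM. It reached 1 FPKM at the control site only, and the component was selected only through it. The form seq3 held 19.1%, 0% and 0.996% and then 49.5%, 71.1% and 83.4% (share difference 61.3 ± 11.0 points SE). That difference is given without a p-value, because the selection required a form of this component to differ. Neither share overlapped between the sites. The values are of few FPKM, and the call of the share of seq3 was lost without any 1 library except acidified library 1.

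The remaining 2 components with a leader for each site behaved in different ways. In Sample_MLA_c37225.graph_c1, whose total fell from 9.89, 24.7 and 23.8 FPKM to 5.67, 8.18 and 4.48 FPKM (log2 difference -1.46 ± 0.36 SE), only 1 of the 2 main forms fell. The form seq3 went from 6.78, 17.2 and 18.2 FPKM to 0.407, 2.11 and 0.478 FPKM (log2 difference -2.91). It reached 1 FPKM in only 1 acidified library, so it met the detection limit through the control libraries. Without seq3 the component would have had under 3 detected forms. The differences of seq3, of the total and of the shares are therefore not free of the selection and are given without p-values. By contrast seq2 was at 2.07, 6.04 and 2.53 FPKM in the control and 5.26, 4.79 and 3.59 FPKM in the acidified libraries, which overlapped (log2 difference 0.38, adjusted p = 0.56). The share of seq2 therefore went from 18.6% ± 7.17 to 77.1% ± 17.3 (n = 3 each, ± SD). Both the total and this share were among those called by limma. The call of the total was lost without control library 2 or 3 or acidified library 1 or 3, and that of the share without any 1 library except acidified library 2.

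In Sample_MLA_c37048.graph_c2 the total overlapped between the sites, at 22.2 ± 4.21 FPKM at the control site, and 21.5 ± 3.22 FPKM in the acidified libraries (n = 3 each, ± SD; limma adjusted p = 0.95). The form seq10 led with 58.7%, 36.3% and 36.8% in the control libraries, and seq5 led with 54.1%, 50.3% and 43.7% in the acidified libraries. The difference of 23.3 ± 7.65 points (SE) in the share of seq5 did not pass the test (limma adjusted p = 0.21).

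**Figure D5:**
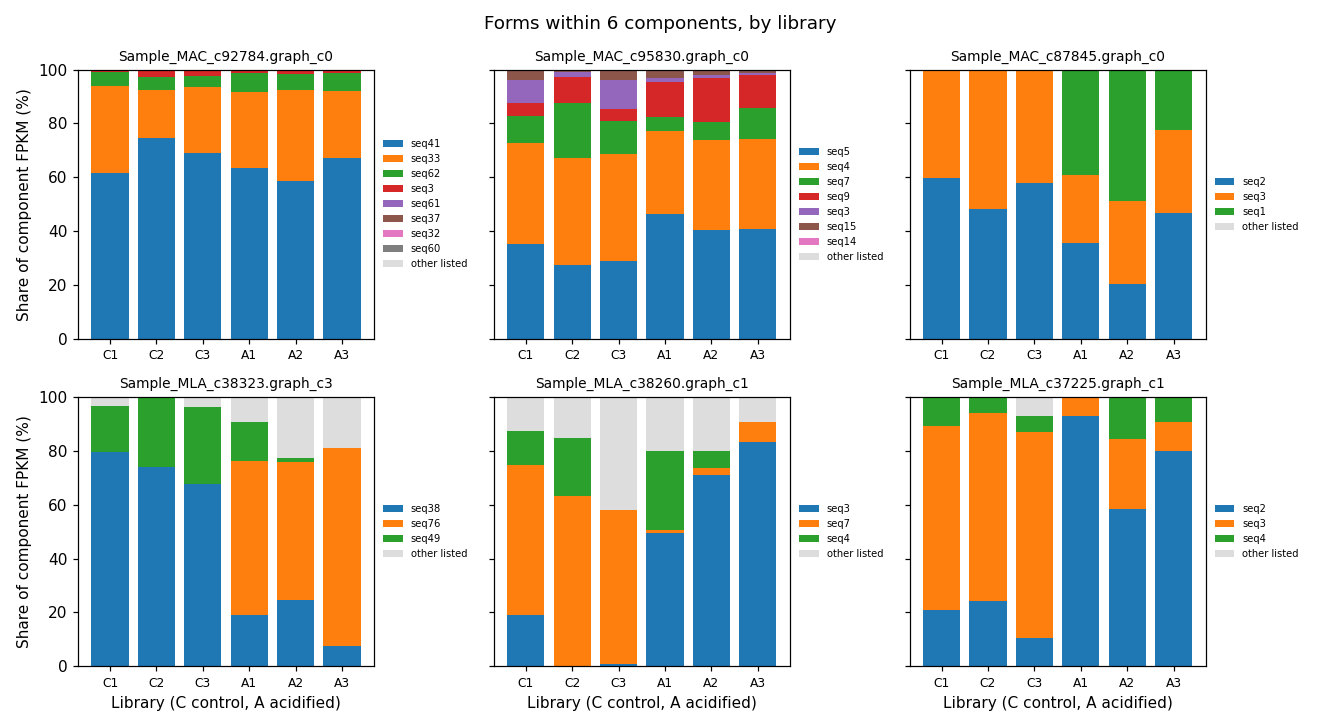
Share of the component FPKM (y axis, percent) held by each detected form in control libraries (C1 to C3) and acidified libraries (A1 to A3) for 6 components; colours mark forms within a panel and grey the other listed forms. In Sample_MAC_c92784.graph_c0 the same form leads throughout, whereas in the 3 lower panels the leading form of the control libraries gives way to another in the acidified libraries.

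Taken over components, the share of the leading form was higher at the acidified site in 2 components and lower in 1 (limma, adjusted p under 0.05), or 1.65% and 0.826% of the 121. Among all 438 components with 2 or more detected forms that could be tested, 1.83% were higher and 2.28% lower. The 3 are Sample_MLA_c38260.graph_c1, Sample_MLA_c37225.graph_c1 and Sample_MLA_c38323.graph_c3. Among the 102 components that did not depend on a form at one site only, 1 was higher, Sample_MLA_c37225.graph_c1, and 0 were lower. Sample_MLA_c37225.graph_c1 in turn needed seq3 to be selected, a form that met the detection limit through the control libraries. The median difference was -0.31 percentage points in the 121, and the median absolute difference 7.84 points, against 8.52 points over all 438.

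The effective number of forms was higher at the acidified site in 2 components, Sample_MAC_c87845.graph_c0 and Sample_MAC_c94718.graph_c0, and lower in 0 (limma, adjusted p under 0.05). Both were selected only through a form that reached 1 FPKM at the acidified site alone, so an added form there was required, and among the 102 other components 0 were called. Over all 431 components tested, 1.16% were higher and 0.232% lower. Both calls were lost without any 1 library. By library, the median effective number of the 121 components was 1.95, 2.04 and 2.05 in the control and 2.06, 2.09 and 2.12 in the acidified libraries.

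Few forms of the selection were listed at 0 at one site throughout. There were 4 at 0 in all 3 control libraries and 1 at 0 in all 3 acidified libraries, the last being seq27 of Sample_MLA_c37847.graph_c3, at 1.90, 4.75 and 1.85 FPKM in the control libraries. Of the 4, 3 are described above, and the other was seq6 of Sample_MAC_c93501.graph_c1, at 4.02, 4.17 and 1.56 FPKM in the acidified libraries; both were named after their values were seen. In all, 105 of the 425 forms, 7 of them leading forms, were listed at 0 in at least 1 library, and at this level a value of 0 does not show that a form was absent.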

How the data were processed

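The authors deposited FPKM in a table for either site, holding 67131 transcripts in 3 libraries, made with Bowtie2 and RSEM 1.1.21, per the submitters' processing notes. Which assembler, filters and settings were used is not given in the sources used here. Sites came from the labelled location and replicate numbers from the titles. Both tables were joined by identifier and fitted together, since FPKM is scaled within a library. A scaling factor per library cancels in the share of a form.

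Component totals were summed over all listed transcripts. Shares are percent of that total, except in the effective number, which uses shares among the detected forms only. Totals, forms and use were compared on log2(FPKM + 1), leading-form shares in percent and effective numbers on log2, with limma 3.58.1 in R 4.3.3 (variance trend, robust), two-sided, over all rows with at least 1 FPKM in at least 3 libraries, with Benjamini-Hochberg adjustment over each whole table. Such differences understate changes of low forms. The fits were tested on simulated data. Nothing says that the pools are independent beyond their labels, so p-values measure the spread between these libraries. Depth is unknown, so no counting interval could be given.

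The members and lists were chosen with earlier results of these data known. Named components are the 3 with most forms, the 3 most abundant, the 2 largest called rises and falls of totals without overlap and of use, up to 4 with 1 leader per site, and, at 10 FPKM or more, the 2 steadiest, most even and most variable within a site. Alternatives were other pseudocounts, filters and scalings, plain limma, the replicate number as a block, totals over detected forms, plain shares, another choice of leader, and leaving out each library.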

Additional observations from a re-analysis of the deposited data

How the results depend on the processing

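The number of components with 3 or more detected forms, 121, was 219, 54 and 21 with a minimum of 0.5, 2 and 5 FPKM in 3 libraries, and 77 and 38 with 1 FPKM in 4 and in 6 libraries. The leading form differed between libraries in 46 of the 104 components with at least 5 FPKM in every library, and in 49 with only libraries of a lead of at least 10 points counted. For totals (9 higher, 7 lower), 4 were lower with plain limma, 0 and 0 were called with no filter, which adds many rows, 14 were higher with a mean of at least 5 FPKM, and 5 and 4 were called with equal sums; without single libraries there were 2 to 6 and 2 to 8. For forms (25 and 22), 14 were higher with a pseudocount of 0.1 and 15 with equal sums, 3 and 5 were called with no filter, and 5 to 19 and 7 to 21 without single libraries. For use (5 and 3), 2 and 0 were called with a mean of at least 5 FPKM, and 2 to 6 and 0 to 3 without single libraries. For leading shares (2 and 1), 0 were higher with plain limma, 2 were lower with totals over detected forms, 0 and 3 were called with the leader taken by mean FPKM, and 0 to 1 and 0 to 1 without single libraries. The effective number (2 higher) gave 0 without any single library. Apart from the replicate block, given next, each other setting tried left these counts within 1.5 times. The cause of these shifts was not tested.

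Over all tested transcripts, libraries with the same number had correlations of -0.12, 0.02 and -0.12 between their deviations from the site mean, so the numbers do not pair the libraries. Fitting this number as a replicate block called 5 higher and 3 lower totals, 17 and 10 forms, 2 and 0 in use, and 0 leading shares and effective numbers in either direction. Signs were compared only for the totals and leading shares of the named components and for the use of the named forms. None of these that passed the test changed sign under an alternative in which it was compared.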
